A study of Mus musculus with 24 samples.

Results

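The genes Cebpa, Cebpb, Cebpd and Cebpg encode C/EBP transcription factors that can pair with CHOP, the product of Ddit3. They were taken as all probe sets that the array's gene table assigned to these 4 symbols. Each gene had 1 probe set, so the set held 4 of 12488 probe sets on the array and 4 of the 5691 genes tested, and all 4 genes passed the filter on low signals. The lowest signal of any of them on any of the 24 arrays was 76.1, for Cebpa, against a filter at a mean signal of about 27.75. Ddit3 itself was not counted among them.

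RNA came from primary mouse embryonic fibroblasts, which are dividing connective tissue cells grown straight from embryos, and was measured on oligonucleotide arrays. The 6 groups were CHOP-/- cells and wild type cells, each untreated or exposed for 4 h or 8 h to tunicamycin (2 µg/ml), with 4 arrays per group lettered A to D. Tunicamycin blocks the attachment of N-linked sugars to proteins in the endoplasmic reticulum (ER), so that unfolded proteins gather there. The cells all share a primary origin and no other allele or agent is named, while the kind of CHOP deletion, the strain and whether the wild type cells were littermates go unstated in the sources used here. Passage 3 is stated for 3 of the untreated wild type arrays only. No label gives a time in culture or a solvent for the untreated cells, so tunicamycin cannot be told apart from time and handling. Nothing states that the 4 arrays of a group were separate cultures, so the p-values reflect no more than the spread among these arrays.

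C/EBP proteins bind DNA as pairs joined through a leucine zipper, and members of the family pair with each other and with CHOP. CHOP differs in its DNA-binding region, so that a C/EBP protein held by CHOP is drawn away from usual C/EBP sites and towards others. Among the partners, C/EBP alpha drives the arrest and differentiation of fat, liver and myeloid cells, C/EBP beta and C/EBP delta answer inflammatory and differentiation cues, and C/EBP gamma lacks an activation domain of its own and also pairs with ATF4, the transcription factor made when the ER stress kinase PERK slows translation. The arrays measured RNA, not protein or pairing.

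The Ddit3 signal lay between 6.9 and 40.4 on all 12 CHOP-/- arrays and between 215.5 and 4883 on all 12 wild type arrays, so no array went against its genotype label. Which part of the gene was deleted and which part the probe set covers are not stated there. Fibroblast markers were present, with 10 of 11 above the filter and Col1a1 at a median signal of 7819.15, although the Vim probe set was low at 22.4. Wild type arrays A and B stood apart at every time in a list of 12 macrophage and leukocyte markers. The summed signal of these markers was 543.9 to 1637 on the CHOP-/- arrays, 2327 to 4347 on wild type arrays A and B, and 599.7 to 1044 on wild type arrays C and D. Lyz2, a lysozyme of myeloid cells, reached 1563.4, while the pan-leukocyte marker Ptprc never exceeded 32.9 and 5 of the 12 markers did not pass the filter. Same-letter arrays of wild type cells also deviated together across all genes, as given with the processing. Values of the 4 members and of the listed genes are given without wild type arrays A and B where that ended a call, which leaves 2 wild type arrays per group.

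Cebpa and Cebpg lie near each other on mouse chromosome 7 (GRCm38.p6), Cebpa at 35119293 to 35121928 and Cebpg at 35046422 to 35056566. They face away from each other with 62.7 kb between them. Cebpb lies on chromosome 2 at 167688915 to 167690432, and Cebpd on chromosome 16 at 15887286 to 15889545. The gene Gm45095 overlaps the Cebpg start, and the only other annotated gene in the interval is the noncoding Gm35611. RefSeq promoter sequence was at hand for 3 of the 4 genes, not for Cebpd. The 250 bases before each start are shown because the results concern how the RNA of these genes moved after tunicamycin, with matches to the motifs named below in capitals.
Cebpg: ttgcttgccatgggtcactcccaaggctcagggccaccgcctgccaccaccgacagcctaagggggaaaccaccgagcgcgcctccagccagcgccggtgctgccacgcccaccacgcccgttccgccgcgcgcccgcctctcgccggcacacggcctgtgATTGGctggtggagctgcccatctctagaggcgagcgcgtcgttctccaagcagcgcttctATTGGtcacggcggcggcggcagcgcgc
Cebpb: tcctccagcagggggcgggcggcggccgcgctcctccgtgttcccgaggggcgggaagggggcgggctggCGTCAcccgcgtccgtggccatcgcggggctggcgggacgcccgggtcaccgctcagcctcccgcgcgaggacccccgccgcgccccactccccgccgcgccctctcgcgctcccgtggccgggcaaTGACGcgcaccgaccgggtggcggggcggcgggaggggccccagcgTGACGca
Cebpa: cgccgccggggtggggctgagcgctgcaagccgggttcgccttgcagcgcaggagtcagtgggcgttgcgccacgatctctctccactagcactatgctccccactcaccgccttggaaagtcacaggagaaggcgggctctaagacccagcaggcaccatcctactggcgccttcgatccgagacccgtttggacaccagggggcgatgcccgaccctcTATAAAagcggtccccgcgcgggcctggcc
These windows are chr7:35056567-35056816 on the minus strand for Cebpg, chr2:167688665-167688914 on the plus strand for Cebpb and chr7:35119043-35119292 on the plus strand for Cebpa. They hold 70.8%, 81.6% and 66.4% G and C in that order, against a median of 52.4% over 32851 promoter windows of the same length.

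A search on both strands found 2 CCAAT boxes (CCAAT, here as ATTGG on the gene's strand) in the Cebpg window, at -89 to -85 and -28 to -24 from the start. The Cebpb window held 3 copies of the core of a site for cyclic AMP response factors (TGACG), at -180 to -176, -53 to -49 and -7 to -3, the first of them on the opposite strand. The Cebpa window held a TATA motif (TATAAA) at -30 to -25. Of all windows, 33.8% hold CCAAT, 17.8% hold TGACG and 12.4% hold TATAAA. None of the 3 windows matched the C/EBP-ATF site (TGATGNAA, 3.45% of windows), the full cyclic AMP site (TGACGTCA, 1.55%, which contains TGACG), the C/EBP site (TTNCNNAA, 36.8%) or the ER stress response element (CCAAT and CCACG with 9 bases between them, 0.113%, which contains CCAAT). A match or its absence in this window is a description of the letters and says nothing of a factor's binding.

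Cebpg was the member called higher in tunicamycin-treated than in untreated cells in both genotypes and at both times. Signals of Cebpg in CHOP-/- cells were 185.3, 162.7, 175.0 and 213.5 on untreated arrays A to D, 264.4, 300.7, 197.1 and 268.1 at 4 h, and 384.0, 314.4, 335.1 and 291.4 at 8 h. Wild type cells gave 215.8, 240.0, 224.7 and 216.3 on untreated arrays, 371.1, 368.2, 355.3 and 377.6 at 4 h, and 367.5, 421.3, 389.5 and 429.2 at 8 h. No treated array overlapped the untreated arrays of its genotype after normalization, and array C was the low one among the CHOP-/- arrays at 4 h. In the deposited signals that array lay below untreated CHOP-/- array D (197.1 against 213.5). After normalization it lay just above array D (log2 7.76 against 7.75). Between groups of 4 arrays, no overlap gives an exact two-sided permutation p of 0.0286, the smallest that 4 against 4 allows.

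The log2 change of Cebpg at 4 h was 0.50 ± 0.121 (SE, adjusted p = 0.0377) in CHOP-/- cells and 0.67 ± 0.121 (adjusted p = 0.00209) in wild type cells. At 8 h it was 0.83 ± 0.121 (adjusted p = 4.94e-05) in CHOP-/- cells and 0.80 ± 0.121 (adjusted p = 5.75e-05) in wild type cells. All these values are from a limma fit over all 24 arrays with Benjamini-Hochberg adjustment over 5691 genes, on the log2(signal + 5.7) scale, and a gene is called here when its adjusted p is under 0.05. As folds, the 8 h changes were 1.78 (95% confidence interval 1.49 to 2.11) in CHOP-/- cells and 1.74 (1.46 to 2.07) in wild type cells. Cebpg was the 1 member of the 4 called higher in each of these comparisons. Among all genes tested, 0.966% were called higher at 4 h in CHOP-/- cells, 1.79% at 4 h in wild type cells, 7.27% at 8 h in CHOP-/- cells and 9.65% at 8 h in wild type cells.

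The 8 h rise of Cebpg kept its call in both genotypes under every alternative run, with adjusted p up to 0.00485 in CHOP-/- cells and 0.014 in wild type cells. The 4 h rise in CHOP-/- cells lost its call under 10 of 19 alternatives, where the change stayed between 0.44 and 0.59 over all of them and the adjusted p reached 0.327. These included leaving out untreated array A, B or C or 4 h array A, B or D, each with an adjusted p between 0.0841 and 0.11. The 4 h rise in wild type cells lost its call without arrays A and B (0.72, adjusted p = 0.236), which left 2 wild type arrays per group. Taken as a mean of both genotypes, a comparison added after the values were seen, Cebpg was called higher at 4 h (0.59 ± 0.0857, adjusted p = 9.88e-05) and at 8 h (0.81 ± 0.0857, adjusted p = 1.55e-07). Without wild type arrays A and B the adjusted p of these means was 0.00904 and 8.06e-05. From 4 h to 8 h the change in Cebpg was 0.33 ± 0.121 in CHOP-/- cells (adjusted p = 0.117) and 0.12 ± 0.121 in wild type cells (adjusted p = 0.744), and neither passed.

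Cebpg was also the member with a called genotype difference, lower in CHOP-/- cells. Untreated CHOP-/- arrays peaked at 213.5 and untreated wild type arrays began at 215.8, so the 2 groups did not overlap, but the difference of -0.31 ± 0.121 was not called (adjusted p = 0.378). At 4 h the CHOP-/- arrays ended at 300.7 and the wild type arrays began at 355.3, and the difference of -0.49 ± 0.121 was called (adjusted p = 0.0297). At 8 h the ranges overlapped, 291.4 to 384.0 in CHOP-/- cells against 367.5 to 429.2 in wild type cells, and the difference of -0.28 ± 0.121 was not called (adjusted p = 0.224). As a mean of the 3 times, a comparison added after the values were seen, Cebpg was lower in CHOP-/- cells by a log2 difference of -0.36 ± 0.07 (adjusted p = 0.00116), a fold of 0.779 (95% confidence interval 0.705 to 0.861). That mean kept its call under all 37 alternatives run, with adjusted p up to 0.0204, which is the value without wild type arrays A and B. Its SE counts the arrays of the 3 times as separate, although same-letter wild type arrays deviated together across times. No alternative fitted the letter within a genotype, so the SE and p of this mean may be too small. Cebpa had a mean of like size with a wider SE (-0.37 ± 0.145), which was not called (limma adjusted p = 0.0995).

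The 4 h genotype difference of Cebpg lost its call more often than its mean over times did. It lost its call under 11 of 21 alternatives with an adjusted p up to 0.222, reached without wild type arrays A and B (-0.51), while the value stayed between -0.55 and -0.39. Leaving out any one wild type array at 4 h, or CHOP-/- array C or D at 4 h, ended the call, with adjusted p between 0.0524 and 0.129. Of the 4 members, Cebpg was the 1 called lower in CHOP-/- cells at 4 h and in the mean of times, and none was called untreated or at 8 h. Of all genes tested, 0.369% were called lower untreated, 1.32% at 4 h, 1.92% at 8 h and 6.55% in the mean of times. Cebpg was the 1 member whose genotypes did not overlap untreated and at 4 h, against 5.25% and 7.87% of all genes.

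**Figure D1:**
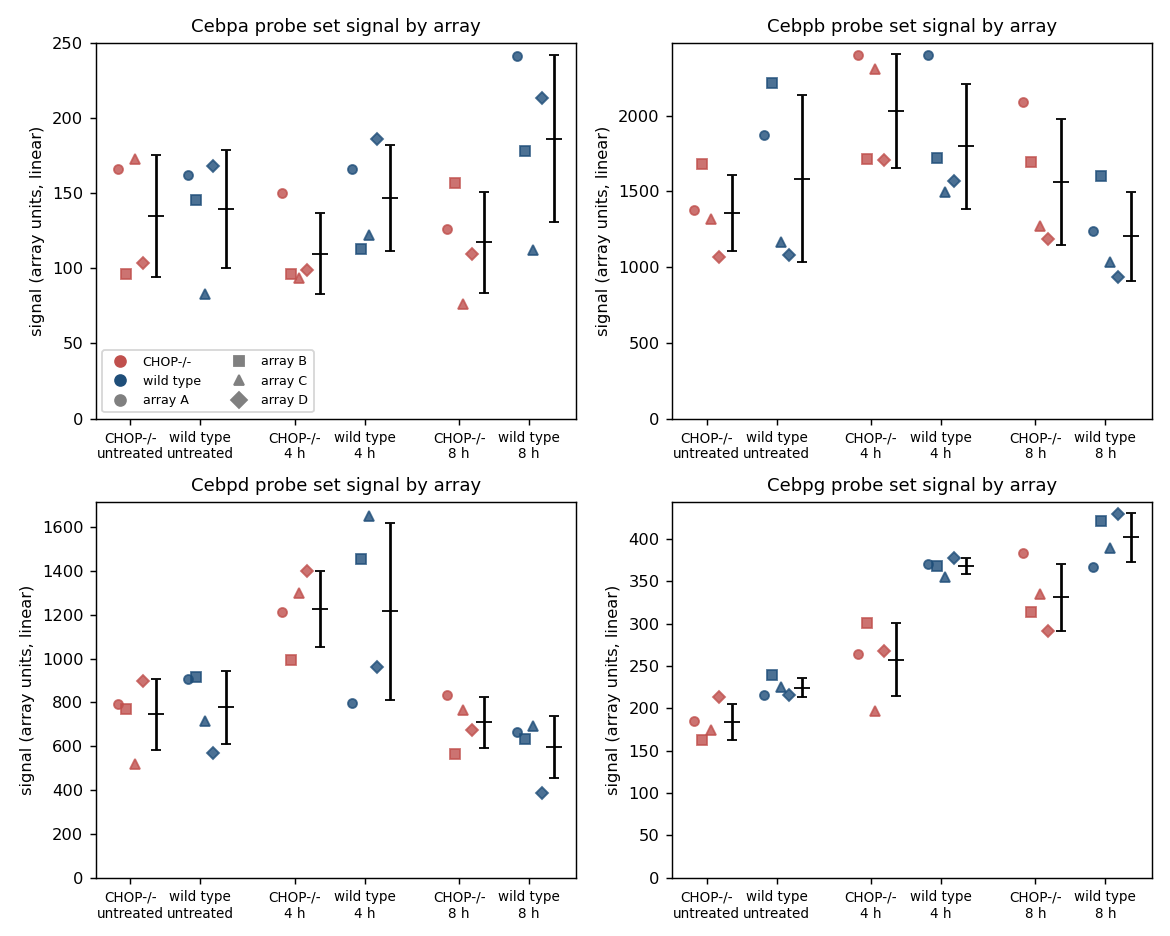
Deposited linear signal of the 4 C/EBP probe sets on each of the 24 arrays, in array units, with CHOP-/- and wild type groups side by side at each time. Points are arrays, marker shapes are the letters A to D, and bars are the mean ± SD of 4 arrays. Cebpg stood higher after tunicamycin in both genotypes, the mean of Cebpd was highest at 4 h, and the arrays of Cebpa and Cebpb overlapped between most groups.

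Cebpd had its highest mean at 4 h in each genotype. The fall from 4 h to 8 h was called in each, and the rise before it was called in neither. Signals of Cebpd in CHOP-/- cells were 794.1, 769.6, 520.2 and 898.9 on untreated arrays, 1211.7, 993.4, 1301.9 and 1399.3 at 4 h, and 834.3, 565.1, 766.1 and 673.9 at 8 h. Wild type cells gave 906.2, 917.2, 717.0 and 570.0 on untreated arrays, 797.3, 1456.0, 1652.4 and 961.1 at 4 h, and 665.6, 633.8, 694.2 and 385.6 at 8 h. All 4 h arrays of CHOP-/- cells lay above all of their untreated and 8 h arrays, while in wild type cells the 4 h arrays A and D were the low ones and array A overlapped the untreated arrays. C/EBP delta is known as an early, short-lived product of inflammatory and mitogenic stimulation.

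Cebpd at 8 h against 4 h was the 1 member of 4 called lower in each genotype. The log2 difference was -0.81 ± 0.22 in CHOP-/- cells (adjusted p = 0.0324), a fold of 0.572 (95% confidence interval 0.417 to 0.785). In wild type cells it was -0.99 ± 0.22 (adjusted p = 0.0108), a fold of 0.504 (0.368 to 0.691). Of all genes, 2.13% were called lower at 8 h than at 4 h in CHOP-/- cells and 2.04% in wild type cells, and the arrays of 11.8% and 9.19% did not overlap, as for Cebpd. The mean of both genotypes was -0.90 ± 0.156 (adjusted p = 0.000428), and it kept its call under all 29 alternatives with adjusted p up to 0.00602. For that mean 5.36% of all genes were called lower.

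Within one genotype the fall of Cebpd was more fragile. The CHOP-/- adjusted p rose above the threshold without 4 h array C or D or 8 h array B, C or D, to at most 0.109, and with arrays centred on their medians it was 0.149. For wild type cells it did so without 4 h array C (0.0528), without 8 h array D (0.0568) and without arrays A and B together (-1.25, adjusted p = 0.075). The rise at 4 h against untreated cells was 0.75 ± 0.22 in CHOP-/- cells (adjusted p = 0.105) and 0.58 ± 0.22 in wild type cells (adjusted p = 0.252), and neither was called. As a mean of both genotypes Cebpd was called higher at 4 h (0.67 ± 0.156, adjusted p = 0.0116), a call that was lost with arrays centred on their medians (adjusted p = 0.0581). In that mean 2 of the 4 members, Cebpg and Cebpd, were called higher, against 3.25% of all genes. Cebpd at 8 h against untreated cells differed by -0.06 ± 0.22 in CHOP-/- cells and -0.41 ± 0.22 in wild type cells (adjusted p = 0.91 and 0.237), so no difference was detectable. In the 8 h mean of both genotypes, Cebpg alone of the 4 was called higher, against 14.7% of all genes.

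Cebpb had its highest mean at 4 h in each genotype, with a wide spread, and no planned contrast of it was called. Signals of Cebpb in CHOP-/- cells were 1374.4, 1677.9, 1316.9 and 1063.2 on untreated arrays, 2398.5, 1711.4, 2310.9 and 1704.6 at 4 h, and 2086.5, 1695.5, 1273.5 and 1188.2 at 8 h. Wild type cells gave 1874.5, 2212.5, 1167.7 and 1079.1 on untreated arrays, 2401.9, 1722.7, 1496.3 and 1570.1 at 4 h, and 1236.3, 1601.3, 1036.6 and 933.3 at 8 h. The CHOP-/- arrays at 4 h all lay above the untreated ones by a narrow gap, while the wild type groups overlapped, with arrays A and B above C and D untreated, at 4 h and at 8 h. C/EBP beta is made from one RNA as activating and inhibiting protein forms, which an RNA signal does not separate.

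Against untreated cells, Cebpb at 4 h differed by 0.55 ± 0.232 in CHOP-/- cells (adjusted p = 0.335) and 0.27 ± 0.232 in wild type cells (adjusted p = 0.812). At 4 h against untreated cells 3 of the 4 members did not overlap in CHOP-/- cells (Cebpb, Cebpd and Cebpg) and 1 of 4 in wild type cells (Cebpg), against 5.94% and 6.92% of all genes. These counts use normalized values, and the CHOP-/- groups of Cebpg overlapped in the deposited signals. At 8 h against untreated cells Cebpg alone did not overlap in either genotype, against 18.5% of all genes in CHOP-/- cells and 20.6% in wild type cells. Cebpb at 8 h against 4 h differed by -0.37 ± 0.232 in CHOP-/- cells (adjusted p = 0.405) and by -0.61 ± 0.232 in wild type cells (adjusted p = 0.169). With the array letter as a block, since the wild type arrays deviated together by letter, that wild type difference was called (-0.61, adjusted p = 0.0225).

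With the same block, the mean of both genotypes was called for Cebpb at 4 h against untreated cells (0.41, adjusted p = 0.028, against 0.179 without the block) and at 8 h against 4 h (-0.49, adjusted p = 0.00387, against 0.0507 without it). Same-letter CHOP-/- arrays of different times did not deviate together throughout, while the CHOP-/- arrays at 8 h did so with the wild type arrays untreated and at 8 h. Cebpb at 8 h against untreated cells differed by 0.18 ± 0.232 in CHOP-/- cells and -0.34 ± 0.232 in wild type cells, with adjusted p of 0.685 and 0.366. Between genotypes, Cebpb differed by -0.14 untreated, 0.13 at 4 h and 0.38 at 8 h, each with an SE of 0.232 and none called.

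Wild type arrays with the higher macrophage and leukocyte marker sums also had the higher Cebpb signals. The sum adds linear signals, and Cd14 had the highest median of the 12 markers, 582.3 over all arrays, followed by Lyz2 at 140. Cd14 is also on the list of reported C/EBP beta or delta targets used below, so the sum is not independent of that list. Untreated wild type arrays A and B had marker sums of 2615 and 4347 with Cebpb at 1874.5 and 2212.5, against sums of 688.5 and 1044 with Cebpb at 1167.7 and 1079.1 on arrays C and D. At 8 h, wild type arrays A and B had sums of 2327 and 3833 with Cebpb at 1236.3 and 1601.3, against 599.7 and 696.6 with Cebpb at 1036.6 and 933.3 on C and D. CHOP-/- arrays with the 2 higher sums of a time also had the 2 higher Cebpb signals at 4 h and at 8 h, though not untreated. Without wild type arrays A and B, a setting not planned beforehand, Cebpb was called higher in CHOP-/- cells in the mean of the 3 times (0.44 ± 0.118, adjusted p = 0.0249). With them that mean was 0.12 ± 0.134 (adjusted p = 0.619). Both arrays lay above C and D in Cebpb at each time, so leaving them out had to raise the difference. Arrays C and D were counted as separate at each of the 3 times, so the call is not taken as a genotype result. The part of such cells in the Cebpb values was not tested, and in bulk RNA fewer cells of a type and less RNA per cell cannot be told apart.

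**Figure D2:**
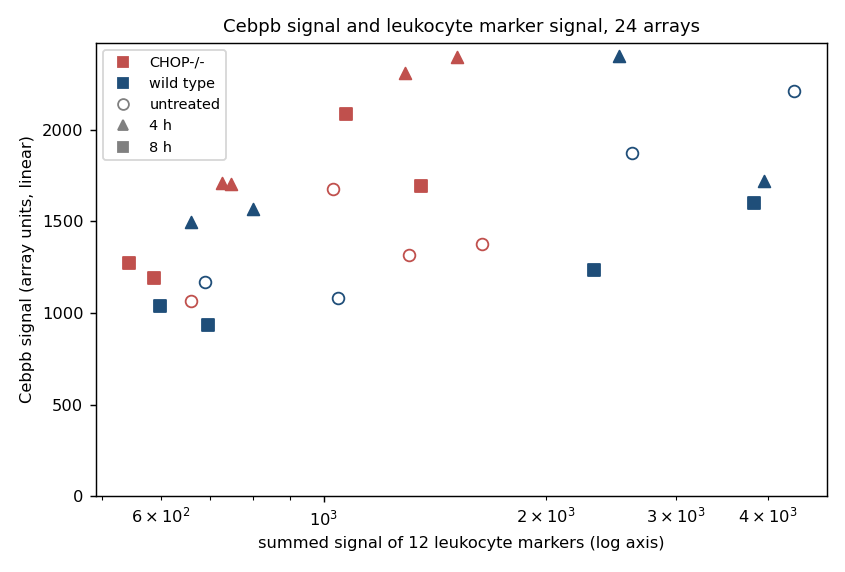
Cebpb signal against the summed signal of 12 macrophage and leukocyte markers on 24 arrays (log horizontal axis), with colour for genotype and marker shape for time, in array units. The 6 wild type arrays with sums from 2327 to 4347 are arrays A and B at the 3 times, and at each time both lay above wild type arrays C and D in Cebpb.

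Cebpa was not called in any of the 11 planned contrasts. Signals of Cebpa in CHOP-/- cells were 166.1, 96.1, 172.8 and 103.7 on untreated arrays, 149.9, 96.3, 93.5 and 99.0 at 4 h, and 126.3, 156.4, 76.1 and 109.7 at 8 h. Wild type cells gave 162.3, 145.4, 82.7 and 167.8 on untreated arrays, 166.0, 112.6, 121.9 and 186.0 at 4 h, and 241.2, 178.2, 112.2 and 213.0 at 8 h. All 6 groups overlapped with each other, and array C was the lowest wild type array untreated and at 8 h. C/EBP alpha is the family member most tied to terminal differentiation. Of the tissues named for it above, markers of fat and liver were low, with 1 of 6 adipocyte markers (Lpl) and 0 of 7 hepatocyte markers above the filter. Those of myeloid cells were not all low, with 7 of 12 macrophage and leukocyte markers above the filter, Lyz2 up to 1563.4 and Cd14 up to 1375.2.

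Against untreated cells, Cebpa at 4 h differed by -0.26 ± 0.251 in CHOP-/- cells and 0.02 ± 0.251 in wild type cells (adjusted p = 0.784 and 0.999). At 8 h it differed by -0.15 ± 0.251 in CHOP-/- cells and 0.36 ± 0.251 in wild type cells (adjusted p = 0.759 and 0.376). The intervals of these 4 changes reached from folds of 0.583 to 1.84, so moderate changes in either direction were within the error. Between genotypes the difference was -0.10 untreated, -0.38 at 4 h and -0.62 at 8 h, each with an SE of 0.251 (adjusted p = 0.942, 0.493 and 0.192). The mean of the 3 times was -0.37 ± 0.145 (adjusted p = 0.0995), and it was called without untreated wild type array C (-0.43, adjusted p = 0.0433) or without 8 h wild type array C (-0.43, adjusted p = 0.047). As for Cebpg, the SE of a mean over times may be too small. With array weights both the 8 h difference (-0.77, adjusted p = 0.0246) and the mean (-0.46, adjusted p = 0.0233) were called.

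The order of the 6 groups differed by member. For Cebpg it ran 401.9 ± 28.6 (mean signal ± SD, n = 4 arrays) in wild type cells at 8 h, 368 ± 9.36 in wild type cells at 4 h, 331.2 ± 39.5 in CHOP-/- cells at 8 h, 257.6 ± 43.5 in CHOP-/- cells at 4 h, 224.2 ± 11.3 in untreated wild type cells and 184.1 ± 21.7 in untreated CHOP-/- cells. Wild type at 4 h and CHOP-/- at 8 h, and CHOP-/- at 4 h and untreated wild type, were neighbours within the larger SD of the pair. For Cebpd the order ran 1227 ± 173 in CHOP-/- cells and 1217 ± 403 in wild type cells at 4 h, then 777.6 ± 166 in untreated wild type cells, 745.7 ± 160 in untreated CHOP-/- cells, 709.8 ± 117 in CHOP-/- cells at 8 h and 594.8 ± 142 in wild type cells at 8 h. Only the step from 4 h to untreated in wild type cells exceeded the larger SD. For Cebpb, from 2031 ± 375 in CHOP-/- cells at 4 h to 1202 ± 294 in wild type cells at 8 h, and for Cebpa, from 186.2 ± 55.6 in wild type cells at 8 h to 109.7 ± 26.9 in CHOP-/- cells at 4 h, no neighbours differed beyond the larger SD. Arrays of 1 group agreed best for Cebpg in all groups but CHOP-/- cells at 4 h, with a coefficient of variation of 2.54% to 16.9%. It was 14.1% to 33.2% for Cebpd, 18.5% to 34.7% for Cebpb and 23.9% to 30% for Cebpa.

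The responses of the 2 genotypes were then compared directly, by subtracting the wild type change from the CHOP-/- change. None of the 4 members was called, at 4 h or at 8 h, where 0% and 0.0351% of all genes were called (230 and 262 genes had an unadjusted p under 0.05). For Cebpg the difference of responses was -0.17 at 4 h (95% confidence interval -0.53 to 0.18) and 0.03 at 8 h (-0.32 to 0.39). For Cebpd it was 0.17 (-0.48 to 0.81) at 4 h and 0.35 (-0.29 to 0.995) at 8 h. For Cebpb it was 0.28 (-0.40 to 0.95) at 4 h and 0.52 (-0.16 to 1.20) at 8 h, and for Cebpa -0.28 (-1.02 to 0.45) and -0.52 (-1.25 to 0.22). These intervals span changes in either direction, so the tests do not show that the genotypes responded alike.

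**Figure D3:**
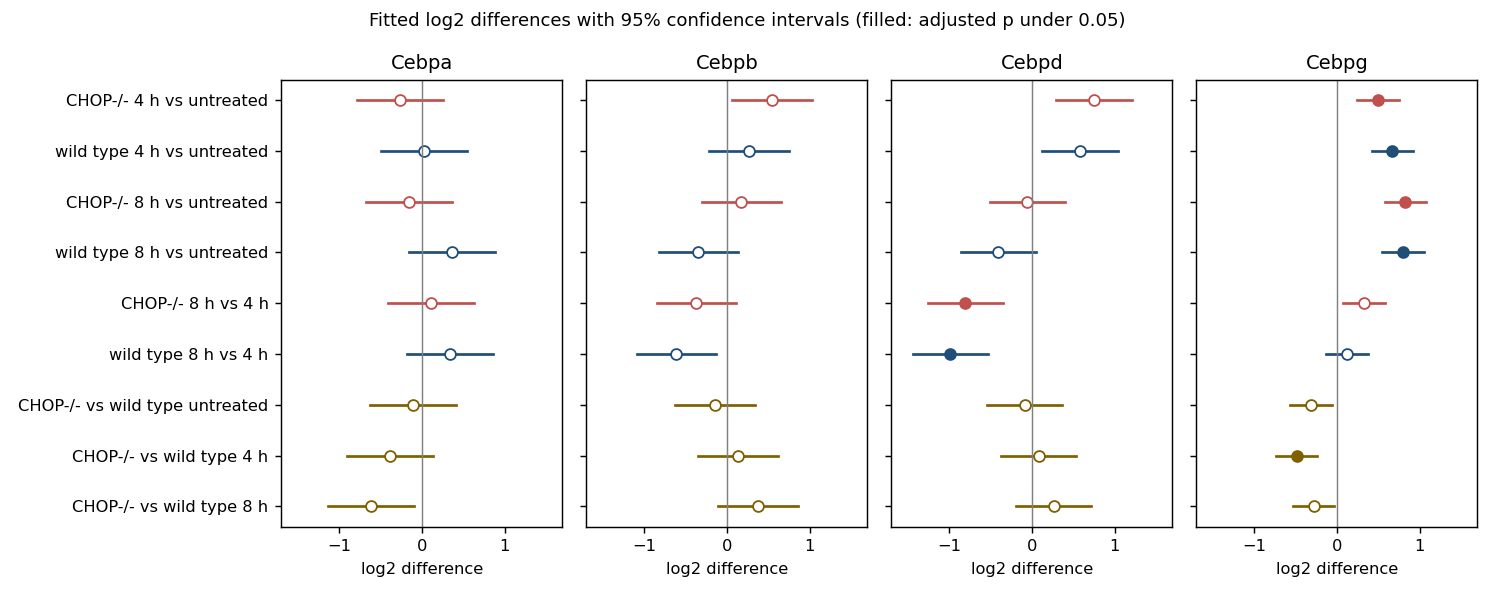
Fitted log2 differences of the 4 genes in 9 comparisons, with 95% confidence intervals, from the limma fit over 24 arrays. Filled points have an adjusted p under 0.05. Cebpg was called in 5 of the 9 comparisons and Cebpd in 2, while Cebpa and Cebpb had open points throughout.

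The log2 ratio of each pair within an array was compared between times, with both genotypes in one test and the arrays permuted between times inside each genotype (exact two-sided test, 18 comparisons, added after the values were seen). The wild type arrays deviate together by letter, which this test does not use. Signals of different probe sets are not levels on one scale, so only changes of a ratio are given. Of the 18 changes, 9 had an adjusted p under 0.05, and 6 of these were ratios with Cebpg. The rest of these were ratios of Cebpb or Cebpd to Cebpa, and Cebpa was also in some of those with Cebpg. Passing ratios were therefore not particular to Cebpg. Cebpg was on top of every ratio it was in by the order of the names. Each member was in as many comparisons as any other, and the ratios share members, so they are not separate results.

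Cebpg gained on Cebpd between 4 h and 8 h, where the log2 ratio changed by 1.13 in CHOP-/- cells and 1.11 in wild type cells (permutation adjusted p = 0.00367). At 8 h against untreated cells the log2 ratio of Cebpg to Cebpd changed by 0.88 in CHOP-/- cells and by 1.20 in wild type cells, a mean of 1.04 (exact permutation p = 0.000408, the smallest the test can give, adjusted p = 0.00367). At 4 h that ratio had changed by -0.25 in CHOP-/- cells and 0.09 in wild type cells (permutation adjusted p = 0.692). The ratio of Cebpg to Cebpb changed at 8 h by 0.65 in CHOP-/- cells and 1.14 in wild type cells (mean 0.90, permutation adjusted p = 0.00549). The ratio of Cebpg to Cebpa was higher at 4 h by a mean of 0.71 (permutation adjusted p = 0.0105) and at 8 h by 0.71 (permutation adjusted p = 0.0238). Between 4 h and 8 h both Cebpb and Cebpd lost ground to Cebpa, by means of -0.72 and -1.12 (permutation adjusted p = 0.00734 and 0.00735), whereas the ratio of Cebpd to Cebpb changed by -0.41 (permutation adjusted p = 0.203).

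**Figure D4:**
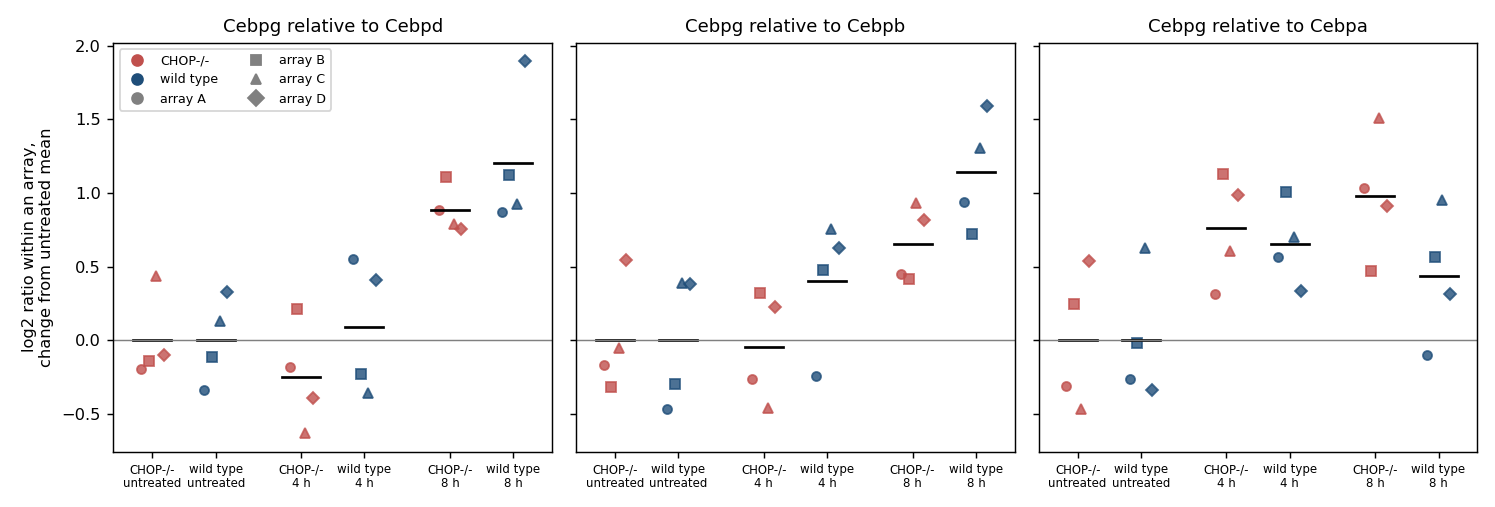
Log2 ratio of Cebpg to each of the other 3 members within an array, as the change from the untreated mean of the same genotype, with lines at group means of 4 arrays. At 8 h all arrays lay above the untreated mean for Cebpg relative to Cebpd and to Cebpb, and 1 wild type array lay below it for Cebpg relative to Cebpa.

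Across the 24 arrays, which share groups, times and scaling, the members were only loosely alike. The Pearson correlation of normalized log2 values was 0.514 for Cebpb and Cebpd, 0.229 for Cebpa and Cebpg and -0.437 for Cebpa and Cebpd, and lay between -0.05 and 0 for the other 3 pairs. After removal of group means the correlation of Cebpb and Cebpd was 0.0849. The genes whose pattern over the 24 arrays was most like each member's are named as a description.

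Cebpg was most like Ppp1r15a (r = 0.927), the phosphatase subunit that restores translation after PERK activity, followed by Gadd45a (r = 0.922), a growth arrest gene, and Trappc5 (r = 0.921), a part of a vesicle tethering complex. Cebpd was most like Il6 (r = 0.858), the interleukin-6 gene, followed by Dusp16 (r = 0.742) and Rgs16 (r = 0.722). Cebpb was most like Il1a (r = 0.843), the interleukin-1 alpha gene, followed by Mmp10 (r = 0.801) and Plscr1 (r = 0.797). Cebpa was most like Nomo1 (r = 0.762), P4hb (r = 0.741) and Cdr2l (r = 0.732).

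Of 24 genes listed as ATF4 genes with a reported C/EBP-ATF site, a list that includes Cebpb, Cebpg and Ddit3, 19 were tested. In CHOP-/- cells 7 were called higher at 4 h and 9 at 8 h, and in wild type cells 8 and 14 were, with Ddit3 itself among the wild type counts. Over all genes the shares called higher were 0.966% and 7.27% in CHOP-/- cells and 1.79% and 9.65% in wild type cells. The wild type counts were 4 and 10 without wild type arrays A and B. None was called lower in these 4 comparisons. The median log2 change at 8 h was 0.522 in CHOP-/- cells and 0.858 in wild type cells, against -0.0107 and -0.0154 over all genes. Herpud1, an ER degradation gene, changed by 2.99 ± 0.107 in CHOP-/- cells and 3.09 ± 0.107 in wild type cells (adjusted p = 1.18e-15 and 5.7e-16). Slc3a2, an amino acid transporter chain, changed by 1.02 ± 0.115 in CHOP-/- cells and 1 ± 0.115 in wild type cells (adjusted p = 1.44e-06 and 1.57e-06). Ppp1r15a changed by 1.45 ± 0.197 in CHOP-/- cells and 2.02 ± 0.197 in wild type cells and was lower in CHOP-/- cells at 8 h by -0.96 ± 0.197 (adjusted p = 0.00461), a call lost without wild type arrays A and B (-0.88, adjusted p = 0.105). Between genotypes at 4 h, 2 of the 19 were called higher and 4 lower in CHOP-/- cells, with Ddit3 and Cebpg among the lower ones. At 8 h, 1 was called higher and 4 lower, with Ddit3 among the lower ones. Over all genes 1.18% and 2.25% were called higher, beside the 1.32% and 1.92% called lower. The 2 higher ones at 4 h were Asns, asparagine synthetase (0.34 ± 0.0924, adjusted p = 0.0464), and Vegfa, a vessel growth factor, and the 1 at 8 h was Vegfa (1.03 ± 0.208, adjusted p = 0.00426). Without wild type arrays A and B, Asns and Vegfa lost their calls at 4 h (adjusted p = 0.349 and 0.188) and Vegfa kept its call at 8 h (adjusted p = 0.035). The counts in CHOP-/- cells were then 0 higher and 1 lower (Ddit3) at 4 h, and 1 higher and 3 lower at 8 h. Cebpb, on the same list, was not called in either genotype.

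**Figure D5:**
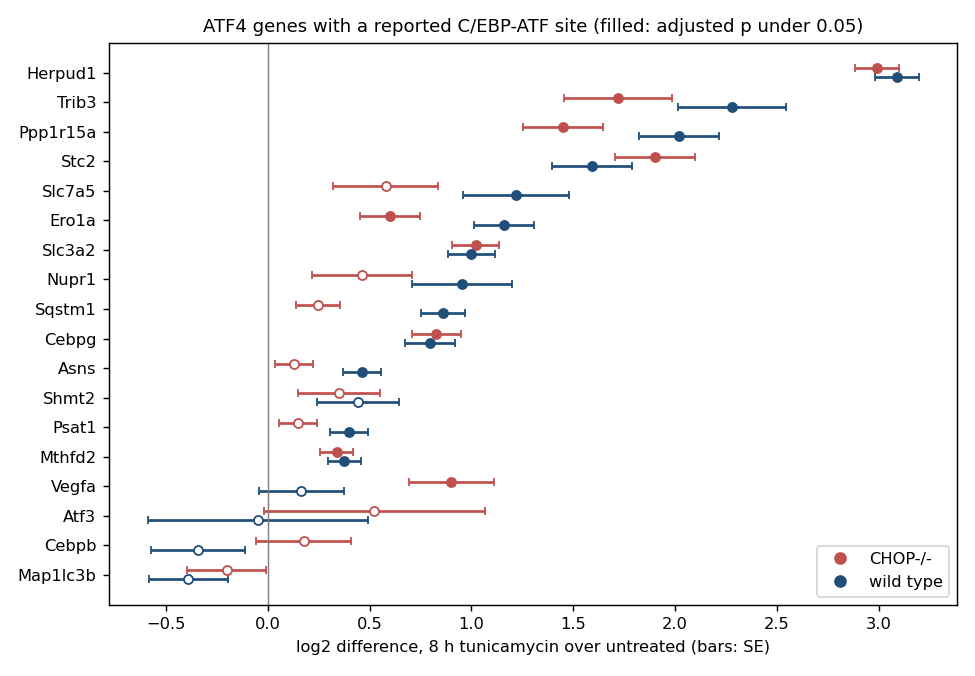
Log2 difference between 8 h of tunicamycin and untreated cells for the listed ATF4 genes other than Ddit3, in CHOP-/- and wild type cells, with SE bars from the limma fit. Filled points have an adjusted p under 0.05. Cebpg was at 0.83 in CHOP-/- cells and 0.80 in wild type cells, and Cebpb had open points on either side of 0.

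Among 27 listed bZIP genes that pair with C/EBP proteins or CHOP or bind like sites, 20 were tested. At 8 h, 5 were called higher and 3 lower in CHOP-/- cells, and 4 higher and 5 lower in wild type cells. Over all genes 7.27% were called higher and 6.62% lower in CHOP-/- cells, and 9.65% higher and 6.94% lower in wild type cells. Without wild type arrays A and B, 1 was called higher (Atf4) and 3 lower in wild type cells, with Nfil3, Nfe2l1 and Atf2 no longer called there. Atf4 was higher by 1.05 ± 0.0971 in CHOP-/- cells and 0.88 ± 0.0971 in wild type cells (adjusted p = 8.29e-08 and 7.53e-07). Nfil3, a repressor that binds sites like those of C/EBP, was higher by 1.33 ± 0.218 and 0.80 ± 0.218, and Atf2 and Nfe2l1 were also called higher in both genotypes. Junb, Fosb and Fos, which form AP-1, were called lower in both genotypes. Junb differed by -0.92 ± 0.278 in CHOP-/- cells and -1.60 ± 0.278 in wild type cells. For Fos the values were -3.67 ± 0.656 and -3.3 ± 0.656 in the same order. Fos was not among the 3 called lower in wild type cells without arrays A and B. Jun differed by -0.52 ± 0.243 in CHOP-/- cells (adjusted p = 0.167) and by -1.36 ± 0.243 in wild type cells (adjusted p = 0.000349), and the difference of these responses was not called (0.84 ± 0.344, adjusted p = 1). Atf5, an ATF4-like factor, was lower in CHOP-/- cells untreated (-0.88 ± 0.216, adjusted p = 0.0471), at 4 h (-1.04, adjusted p = 0.00822) and at 8 h (-1.14, adjusted p = 0.00251). When wild type arrays A and B were left out, none of these 3 Atf5 differences was called (adjusted p = 0.277, 0.13 and 0.0785).

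Of 30 listed inflammation and acute phase targets of C/EBP beta or delta, 24 were tested, Cebpb and Cebpd among them. At 8 h against untreated cells 2 were called higher and 0 lower in CHOP-/- cells, and 2 higher and 1 lower in wild type cells. The 2 of 24 called higher stood beside 7.27% of all genes in CHOP-/- cells and 9.65% in wild type cells. The 0 and 1 called lower stood beside 6.62% and 6.94% of all genes in the same order. Gadd45a was higher by 2.64 ± 0.23 in CHOP-/- cells and 2.46 ± 0.23 in wild type cells (adjusted p = 3.34e-08 and 6.35e-08). Ptx3, a pentraxin, differed by -0.16 ± 0.362 in CHOP-/- cells (adjusted p = 0.836) and was called higher in wild type cells (1.17 ± 0.362, adjusted p = 0.027). Ptgs2, cyclooxygenase-2, differed by -0.27 ± 0.192 in CHOP-/- cells (adjusted p = 0.409) and was called lower in wild type cells (-1.26 ± 0.192, adjusted p = 6.02e-05). No gene of this list was called in the difference of responses at 8 h, Ptx3 and Ptgs2 included. None was called higher at 8 h against 4 h, while 3 were called lower in CHOP-/- cells and 4 in wild type cells, with Cebpd and Il6 in both counts, against 2.13% and 2.04% of all genes called lower. None of the 24 was called lower in wild type cells between these times without arrays A and B.

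Of 23 listed inducers and signalling genes upstream of Cebpb and Cebpd, 14 were tested, and at 8 h 2 were called lower in CHOP-/- cells and 3 in wild type cells, with none higher, against 6.62% and 6.94% of all genes called lower. Il1r1, the interleukin-1 receptor, was lower by -1.16 ± 0.194 in CHOP-/- cells and -1.47 ± 0.194 in wild type cells (adjusted p = 0.000227 and 9.77e-06). Egr2 was lower by -1.80 ± 0.469 in CHOP-/- cells and -2.37 ± 0.469 in wild type cells (adjusted p = 0.0113 and 0.000934). Stat3, which carries interleukin-6 signals, differed by -0.46 ± 0.176 in CHOP-/- cells (adjusted p = 0.0905) and was called lower in wild type cells (-0.63 ± 0.176, adjusted p = 0.0158), a call lost without wild type arrays A and B (adjusted p = 0.198). No gene of this list was called in the difference of responses at 8 h. Of 16 listed regulators of C/EBP proteins 8 were tested, and none was called in the difference of responses at 8 h. At 8 h Trib3, a pseudokinase, was higher by 1.72 ± 0.265 in CHOP-/- cells and 2.28 ± 0.265 in wild type cells, Crebbp, a coactivator, was called higher in CHOP-/- cells (0.56 ± 0.178, adjusted p = 0.035) and differed by 0.45 in wild type cells (adjusted p = 0.0888), and the inhibitors Id1 and Id2 were lower, Id1 by -2.45 ± 0.187 in CHOP-/- cells and -2.63 ± 0.187 in wild type cells. The wild type difference of Id2 was not called without arrays A and B (-1.49, adjusted p = 0.0501). Of 18 listed adipocyte differentiation genes 6 were tested and none was called in either genotype at 4 h or 8 h against untreated cells. Over all genes at 8 h, 7.27% were called higher and 6.62% lower in CHOP-/- cells, and 9.65% and 6.94% in wild type cells. With 6 genes, none called is close to these shares. Scd1, a fatty acid desaturase, was at -0.29 ± 0.193 in CHOP-/- cells and -0.41 ± 0.193 in wild type cells at 8 h. Between genotypes at 8 h, 1 of the 6 was called higher and 1 lower in CHOP-/- cells, against 2.25% and 1.92% of all genes. Neither was called without wild type arrays A and B.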

How the data were processed

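The authors deposited 1 linear signal intensity per probe set and array. No source used here names the software or scaling behind these intensities. The trimmed mean of each array was 250.1 to 250.2, and the median 48.2 to 72.6. Arrays give no read depth, and precision is limited by having 4 arrays in each group.

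The 66 control probe sets were left out. Of 12488 probe sets, 10855 had 1 gene in the platform table, 396 had several and 1237 had none, and 10817 matched RefSeq (GRCm38.p6). Signals plus 5.7, their 20th percentile, were put on the log2 scale and quantile normalized. The probe set with the highest mean stood for a gene, and genes above the 40th percentile were tested, 5691 of 8251. limma 3.58.1 in R 4.3.3 fitted 6 group means over 24 arrays, with an intensity trend and Benjamini-Hochberg adjustment within each of 11 contrasts, and 4 contrasts were added after the values were seen. Figures used Python 3.11.15 and matplotlib 3.10.9. The fit was tested on simulated data. No 2 arrays held identical values.

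The members and lists were chosen with earlier results of these data known. Besides the members, the text names the 3 tested genes most correlated with each, and from each list up to 4 genes with the smallest adjusted p in wild type cells at 8 h and called genes that went against the majority. Atf5 and Fos were chosen after their values were seen, and not every gene selected by the rule is printed. The lists cover bZIP genes, inflammation targets, adipocyte genes, inducers, regulators and ATF4 genes.

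The labels do not say what the letters A to D stand for. Same-letter arrays deviated together from their group means in wild type cells, with correlations over genes of 0.314 to 0.553 between untreated and 4 h, 0.403 to 0.618 between untreated and 8 h, and 0.25 to 0.611 between 4 h and 8 h. The CHOP-/- arrays at 8 h also did so with the wild type arrays untreated (0.213 to 0.473) and at 8 h (0.286 to 0.546). The other pairs of groups did not in all 4 letters, such as the untreated and 4 h CHOP-/- groups (-0.343 to 0.432). Alternatives covered the pseudocount, normalization, filter, probe sets, array weights, trend, the letter as a replicate block, the groups fitted and the arrays left out.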

Additional observations from a re-analysis of the deposited data

Results flagged for a closer look

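Cebpa at 4 h in CHOP-/- cells had 1 array far from the others. Array A gave a signal of 149.9, while arrays B, C and D gave 96.3, 93.5 and 99.0. This was the 1 such case among 24 sets of 4 arrays (4 genes in 6 groups), and chance flags about 1 in 20 groups.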

How the results depend on the processing

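Of 736 values for 60 results under 13 settings other than leaving out single arrays, 699 kept their direction and their side of the threshold, 28 crossed the threshold and 9 changed sign. The cause of these shifts was not tested. The 8 h rise of Cebpg in each genotype, its lower mean over times in CHOP-/- cells and the mean fall of Cebpd between 4 h and 8 h kept their calls under every setting. Values of the 4 genes below are log2 differences with adjusted p from limma, and those of ratios have adjusted p from the exact permutation test.

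Cebpg at 4 h in CHOP-/- cells was 0.4627 (0.089) with the deposited values, 0.4708 (0.192) with arrays centred on their medians, 0.5 (0.0513) with every probe set, 0.4987 (0.327) with the compared groups only and 0.4379 to 0.5938 without single arrays. Cebpg between genotypes at 4 h was -0.5476 (0.0623) with median centring, -0.4508 (0.0706) with array weights, -0.4829 (0.2) with the compared groups only, -0.5109 (0.116) without arrays of outlying median, -0.5087 (0.222) without wild type arrays A and B and -0.5479 to -0.3898 without single arrays. Cebpg in wild type cells at 4 h was 0.723 (0.236) without wild type arrays A and B, and its mean between 4 h and 8 h was 0.3213 (0.0494) with median centring. Cebpd at 8 h against 4 h in wild type cells was -0.9283 (0.0655) with median centring, -0.9829 (0.0764) with the compared groups only, -1.018 (0.0525) without arrays of outlying median, -1.254 (0.075) without wild type arrays A and B and -1.163 to -0.796 without single arrays. In CHOP-/- cells it was -0.7043 (0.149) with median centring, -0.8054 (0.0568) with every probe set and -0.8966 to -0.709 without single arrays. The mean of Cebpd at 4 h was 0.6612 (0.0581) with median centring.

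With the array letter as a replicate block, Cebpb was called at 8 h against 4 h in wild type cells (-0.6137, 0.0225), in the mean at 4 h (0.4082, 0.028) and in the mean of 8 h against 4 h (-0.4917, 0.00387), and the block changed no other call of the 4 genes. That last mean was also called with the deposited values (-0.4904, 0.049), the stricter filter (-0.4917, 0.0431), the compared groups only (-0.4935, 0.0449) and without wild type arrays A and B (-0.4927, 0.0479), and was -0.5709 to -0.3941 without single arrays. Cebpb between genotypes over 3 times was 0.4364 (0.0249) without wild type arrays A and B. With array weights Cebpa between genotypes was -0.7739 (0.0246) at 8 h and -0.4607 (0.0233) over 3 times, and that mean was -0.4342 to -0.3104 without single arrays.

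Sign changes touched small differences that were not called. Without wild type arrays A and B, genotype differences were 0.06542 for Cebpa, 0.2648 for Cebpb and 0.1661 for Cebpd untreated and -0.01257 for Cebpd at 4 h, response differences were -0.1787 for Cebpd at 4 h and -0.03125 for Cebpg at 8 h, and the mean of Cebpa at 4 h was 0.0444. Cebpd at 8 h in CHOP-/- cells was 0.03413 with median centring, Cebpa at 4 h in wild type cells -0.05629 with array weights, and the ratio of Cebpg to Cebpa between 4 h and 8 h -0.000379 with pseudocount 1. Without single arrays, Cebpa ran from -0.3003 to 0.01726 at 8 h in CHOP-/- cells, -0.1777 to 0.1363 at 4 h in wild type cells, -0.04199 to 0.2753 at 8 h against 4 h in CHOP-/- cells and -0.3021 to 0.00946 between untreated genotypes. Cebpb ran from -0.2943 to 0.008419 between untreated genotypes. Cebpd ran from -0.2151 to 0.04402 at 8 h in CHOP-/- cells, -0.2216 to 0.07118 between untreated genotypes, -0.09115 to 0.232 between genotypes at 4 h and -0.002717 to 0.3201 as the 4 h response difference. The 8 h response difference of Cebpg ran from -0.04471 to 0.09671.

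Ratios with Cebpa were the ones that crossed the threshold: Cebpd to Cebpa at 4 h was 0.756 (0.062) with deposited or median-centred values, and Cebpb to Cebpa at 4 h was 0.501 (0.0484) with pseudocount 32. Counts of called genes moved more than the members did. In CHOP-/- cells at 4 h, 86 genes were called, against 49 with the deposited values, 38 with median centring, 55 without the filter and 21 with the compared groups only. In wild type cells at 4 h, 121 were called, against 80 with median centring, 191 with array weights, 68 with the compared groups only, 53 without arrays of outlying median and 21 without wild type arrays A and B. The 8 h wild type count was 944, against 1470 with array weights and 295 once arrays A and B were left out. At 8 h against 4 h, 316 were called in CHOP-/- cells, against 162 with the compared groups only, and 235 in wild type cells, against 109 with the compared groups only, 52 without arrays of outlying median and 20 without arrays A and B. Between genotypes, 56 were called untreated, against 88 with array weights, 23 with the compared groups only and 37 without arrays A and B. The 4 h count was 142, against 53, 59 and 37 with the compared groups only, without arrays of outlying median and without arrays A and B. The 8 h count was 237, against 155 with median centring, 543 with array weights and 110 once arrays A and B were left out. The means of both genotypes called 279 genes at 4 h, against 181 without arrays of outlying median and 107 without arrays A and B, and 719 at 8 h against 4 h, against 478 and 398 in the same order. Response differences called 0 genes at 4 h and 2 at 8 h, and 0 to 5 under the settings. Leaving out a single array gave 49 to 67 called genes in CHOP-/- cells and 62 to 114 in wild type cells at 4 h, 120 to 408 and 110 to 187 at 8 h against 4 h, and 34 to 52 untreated, 79 to 149 at 4 h and 147 to 205 at 8 h between genotypes.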
